A study of Mus musculus with 550 samples.

Results

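Neutrophils are short-lived granulocytes that form in the bone marrow, circulate in blood and enter tissues within hours of an injury or infection. The 10 genes described here are active in these cells or their precursors and were followed in C57BL/6 mice: S100a8, S100a9, Csf3r, Cxcr2, Retnlg, Mmp8, Mmp9, Camp, Ngp and Ltf. Each gene was read from the probe sets annotated to that gene alone, taking the probe set of the highest mean in each organ. Of the 10 genes, 9 had such a probe set, among 17097 genes measured in all, and Retnlg was not analysed here.

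Messenger RNA was profiled with 550 Affymetrix arrays, each holding 1 organ of 1 mouse. Mice were given 1 dose of a fumarate, or vehicle, and organs were taken 6 or 12 h later. DMF is dimethyl fumarate, the dimethyl ester of fumaric acid, and was given at 100 mg/kg (DMF 100) or 179.2 mg/kg (DMF 179.2). MEF is monoethyl fumarate, given at 79.2 mg/kg as mixed calcium, magnesium and zinc salts (MEF 79.2). In the combined group (DMF+MEF), mice received both DMF at 100 mg/kg and MEF salts at 79.2 mg/kg. This make-up is read from the sample titles, because MEF is missing from the group's source names. Naive mice, which were not dosed, were added at 12 h only. Vehicle mice received hydroxypropyl methylcellulose and were included at both times. Sex and age were not given in the sources used here. The organs were whole blood (78 arrays), spleen (72), mesenteric lymph node (88), inguinal lymph node (73), jejunum (76), kidney (77) and brain (86), and kidney is in the labels but not in the series description. The 77 groups held 3 to 8 arrays, 44 of them 8 and 1 of them 3.

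Neutrophil genes are read out at different stages of the cell's life. Primary and secondary granule proteins are transcribed in marrow precursors, and their RNA is low once the cell is mature and circulating, whereas S100a8 and S100a9, which encode the calcium-binding subunits of calprotectin, and the receptor genes Csf3r and Cxcr2 remain active in the circulating cell. Csf3r encodes the receptor of granulocyte colony-stimulating factor, which drives neutrophil production, and Cxcr2 the receptor of the chemokines that draw neutrophils out of the marrow and into tissue. Mmp8 encodes neutrophil collagenase and Mmp9 gelatinase B, a protease that macrophages and other cells make too. Camp, the precursor of the cathelicidin peptide, Ngp, neutrophilic granule protein, and Ltf, lactotransferrin, are contents of secondary granules. In whole organs, fewer cells of a type and less RNA per cell cannot be told apart.

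Mmp8, Camp, Ngp and Ltf, 4 of the 10 genes, lie on mouse chromosome 9, and S100a8 and S100a9 lie near each other on chromosome 3 (S100a8 at chr3:90669071-90670034, S100a9 at chr3:90692630-90695721, RefSeq, GRCm38.p6). Promoter sequence was found for 9 of the 10 genes in RefSeq (GRCm38.p6), as 300 bases from 250 before to 50 after the start of the gene, and Mmp9 had no entry. Promoters of 4 genes are shown because the results turn on them. S100a8 and Mmp8 rose in blood, spleen or kidney, and Ngp and Ltf varied together from animal to animal. Letters in capitals mark matches, on either strand, to TTGCNNAA, a C/EBP type motif, or to GAGGAAG, a PU.1 type motif. The sequences run 5′ to 3′ on the plus strand of chr3:90668821-90669120 for S100a8, chr9:7558179-7558478 for Mmp8, chr9:110419558-110419857 for Ngp and chr9:111019042-111019341 for Ltf.
S100a8: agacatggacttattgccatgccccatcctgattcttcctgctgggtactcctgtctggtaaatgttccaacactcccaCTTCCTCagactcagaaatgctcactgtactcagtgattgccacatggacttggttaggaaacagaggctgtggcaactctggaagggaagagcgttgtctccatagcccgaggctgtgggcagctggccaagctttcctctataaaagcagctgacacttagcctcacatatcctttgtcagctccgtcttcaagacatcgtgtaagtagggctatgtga
Mmp8: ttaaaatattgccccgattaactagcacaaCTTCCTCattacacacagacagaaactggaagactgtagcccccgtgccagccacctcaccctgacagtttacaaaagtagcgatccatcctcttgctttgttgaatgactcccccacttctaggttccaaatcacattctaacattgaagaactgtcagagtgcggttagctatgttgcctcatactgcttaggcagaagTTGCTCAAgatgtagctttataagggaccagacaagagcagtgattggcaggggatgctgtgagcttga
Ngp: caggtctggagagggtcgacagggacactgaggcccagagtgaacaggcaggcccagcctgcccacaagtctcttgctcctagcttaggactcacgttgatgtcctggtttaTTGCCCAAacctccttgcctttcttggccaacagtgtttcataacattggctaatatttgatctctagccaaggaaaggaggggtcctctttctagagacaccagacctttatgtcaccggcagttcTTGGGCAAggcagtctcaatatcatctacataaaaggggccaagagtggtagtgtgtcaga
Ltf: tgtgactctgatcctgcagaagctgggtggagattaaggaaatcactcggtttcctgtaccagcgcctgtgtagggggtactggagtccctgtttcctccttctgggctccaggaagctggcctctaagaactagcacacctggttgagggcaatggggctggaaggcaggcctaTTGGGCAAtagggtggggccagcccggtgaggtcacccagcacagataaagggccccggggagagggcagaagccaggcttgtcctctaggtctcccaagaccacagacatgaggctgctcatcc
The C/EBP type motif was found in 5 of the 9 promoters (S100a9, Mmp8, Ngp, Ltf and Retnlg), against 10.8% of the 32851 promoters in the table. The PU.1 type motif was found in 3 of the 9 (S100a8, Csf3r and Mmp8), against 13.6% of the table. Mmp8 alone of the 9 held both, Ngp held the C/EBP type motif at 2 positions, and Cxcr2 and Camp held neither. The motifs share no overlap in the sequences shown, and a match is a run of letters and not a measured binding site.

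The organ labels were checked against defining genes, with all levels on the deposited log2 scale. Alas2 and Hba-a1, genes of red cell precursors, had medians of 13.86 and 14.56 in blood. Snap25 (brain, median 13.07), Umod (kidney, 12.52) and Fabp2 (jejunum, 14.21) marked their organs, and Cd79a and Cd3e of B and T cells had medians of 11.35 to 12.04 and 10.47 to 11.87 in spleen and both lymph nodes. Single arrays of other organs reached 11.78, 7.51 and 7.21 for Fabp2 (spleen, mesenteric node and kidney) and 9.04 for Umod (jejunum). A kidney array reached 11.77 for the albumin gene. No array was left out of a fit by Fabp2 or Umod, nor any kidney array by the albumin gene. In 19 spleen arrays, pancreatic acinar genes or Alb, the albumin gene, were far above the other spleens, among them vehicle replicates 52, 54, 56 and 57 at 6 h. In 4 jejunum arrays of 12 h, vehicle replicates 5, 6 and 7 and DMF 100 replicate 15, the mean of Hoxb6 and Hoxb9, which mark more distal intestine, was 6.27 to 7.90. Tra2b, a splicing factor gene, was taken as a sign of an animal's place in the numbering. Its relation to place is not shown here, and no test separates place from a response of Tra2b to treatment. Tra2b was lower after DMF 179.2 at 6 h in spleen, kidney, jejunum and brain, with differences from -1.71 to -1.08. At 6 h it was also lower after DMF 100 in jejunum (-1.645) and after DMF+MEF in jejunum (-1.56) and spleen (-1.533). At 12 h it was lower in every kidney group but MEF 79.2, and in mesenteric node after DMF 179.2 and in naive mice. No MEF 79.2 group had it called, and their numbers hold the same places in runs of 12 as vehicle. Other groups share at most part of those places, so place and treatment are partly confounded. Calls against vehicle in spleen at 6 h and jejunum at 12 h were also counted without the spleen and jejunum arrays that held other tissue. Differences between times, and the values of groups without a call, are given only with those arrays. Each organ and time had its own lowest value, between 2.12 and 2.25, called the floor below, with 18.9 to 25.7% of all values at it, and organs were therefore fitted apart.

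In vehicle mice at 6 h, the genes of circulating neutrophils were highest in blood and the secondary granule genes were highest in spleen. S100a8 averaged 12.54 ± 0.25 in blood (SD, n = 6), 11.80 ± 0.37 in spleen (n = 8), 7.51 ± 1.06 in inguinal node (n = 7), 6.46 ± 1.08 in mesenteric node (n = 8), 5.15 ± 0.28 in brain (n = 8), 4.04 ± 0.25 in kidney (n = 7) and 2.22 ± 0.00 in jejunum (n = 8). The 2 lymph nodes did not differ beyond their spread, and jejunum lay near its floor. S100a9 kept this order except that kidney (6.08 ± 0.36, n = 7) and brain (6.00 ± 0.58, n = 8) lay within their spread of each other. Because the floors differ between organs, the order was also taken after a quantile normalization of all arrays together, and the highest organ of each of the 9 genes was the same.

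Among the receptors, Csf3r was 8.15 ± 0.42 in blood and 6.22 ± 0.56 in spleen (SD, n = 6 and 8), and 2.56 to 4.30 elsewhere. Cxcr2 was 7.12 ± 0.46 in blood (n = 6), 5.72 ± 0.25 in inguinal node (n = 7) and 3.51 ± 0.18 in spleen (n = 8). In inguinal node and spleen the same value recurred across dosed and vehicle arrays, 5.75 and 3.43. The order of these organs for Cxcr2 therefore cannot be read as one of RNA amount. Csf3r likewise recurred at 4.2 in inguinal node, 4.0 in kidney, 3.14 in jejunum and 2.56 in brain. Mmp8 was above the floor in blood (6.5 ± 0.63) and spleen (4.70 ± 0.81) and at the floor in every vehicle array of the other 5 organs. Mmp9 was 8.83 ± 0.49 in blood, and the next 4 organs did not differ beyond their spread: 6.34 ± 0.34 in spleen, 6.21 ± 0.67 in mesenteric node, 6.12 ± 0.28 in inguinal node and 6.04 ± 0.35 in jejunum. Of the granule genes, Camp was 9.53 ± 0.40 in spleen against 3.96 ± 1.42 in blood, Ngp 9.33 ± 0.42 against 5.90 ± 1.35, and Ltf 7.36 ± 0.48 against 3.38 ± 0.86. All 3 were highest in spleen at 12 h too, with Camp at 9.15 in spleen and 5.55 in blood.

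Across all organs, 567 values were set against vehicle of the same organ and time (9 genes in 63 contrasts), with 95% intervals and 2-sided p-values from limma, Benjamini-Hochberg adjusted over all 17097 genes of a contrast. A gene is called changed where the adjusted p is below 0.05. In all, 19 values were called, all of them higher than vehicle, in 11 of the 63 contrasts. Mmp9 had 8 of the calls, S100a8 3, S100a9, Mmp8 and Ltf 2 each, and Csf3r and Cxcr2 1 each. Camp and Ngp were called in no contrast.

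**Figure D1:**
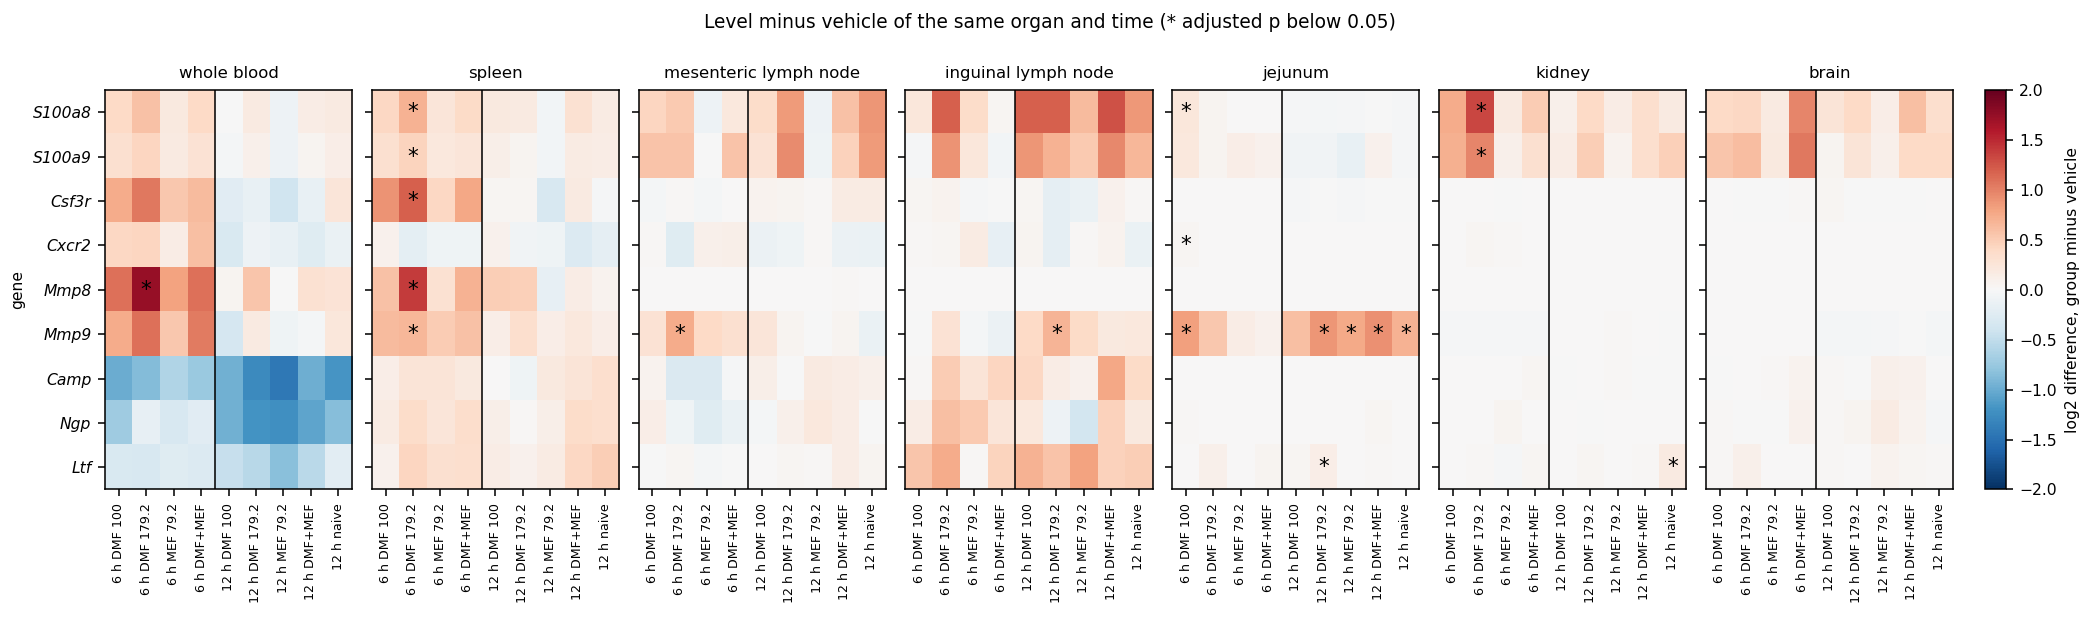
Log2 difference of each group from vehicle of the same organ and time (colour, red higher and blue lower than vehicle) for the 9 measured genes (rows), with 6 h left and 12 h right of the line in each organ. Stars mark the 19 calls. Red cells gather in the 6 h DMF columns of blood, spleen and kidney and in the Mmp9 row of jejunum, and blue cells in the Camp, Ngp and Ltf rows of blood.

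In blood 6 h after DMF 179.2, Mmp8 was 3.35-fold higher than in vehicle mice, and the other genes of circulating neutrophils had positive differences that did not pass the test over all genes. Mmp8 had a lowest, median and highest level of 6.95, 8.29 and 9.05 in 7 DMF 179.2 arrays, against 5.74, 6.48 and 7.24 in 6 vehicle arrays. Replicate 67 was the low one after DMF 179.2, and it alone fell within the range of vehicle. The log2 difference was 1.74 (SE 0.34, 95% interval 1.07 to 2.42, adjusted p = 0.00763 by limma), in a contrast in which 0.0702% of all genes were called. The call did not hold when only these 13 arrays were fitted, with the same difference and an adjusted p of 0.446.

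S100a8 in the same mice had a lowest, median and highest level of 12.86, 13.08 and 13.49 after DMF 179.2, against 12.26, 12.53 and 12.87 with vehicle. The ranges overlapped only at their ends, with a difference of 0.59 (95% interval 0.25 to 0.92, adjusted p = 0.257 by limma). Its partner S100a9 was 13.47, 13.60 and 13.95 against 12.97, 13.25 and 13.43, and Mmp9 9.57, 9.77 and 10.47 against 8.24, 8.91 and 9.49. For both of these genes every DMF 179.2 array lay above every vehicle array, yet the adjusted p was 0.348 for S100a9 (difference 0.43) and 0.257 for Mmp9 (difference 1.10). The receptors differed by 1.05 for Csf3r (8.20, 9.11 and 10.10 against 7.71, 8.08 and 8.69, adjusted p = 0.257) and by 0.43 for Cxcr2 (6.92, 7.48 and 8.16 against 6.51, 7.27 and 7.59, adjusted p = 0.859). The median difference of the 9 genes was 0.43, beside 0.00 over all genes, and 5 of the 9 had an unadjusted p below 0.05, beside 7.44% of all genes.

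**Figure D2:**
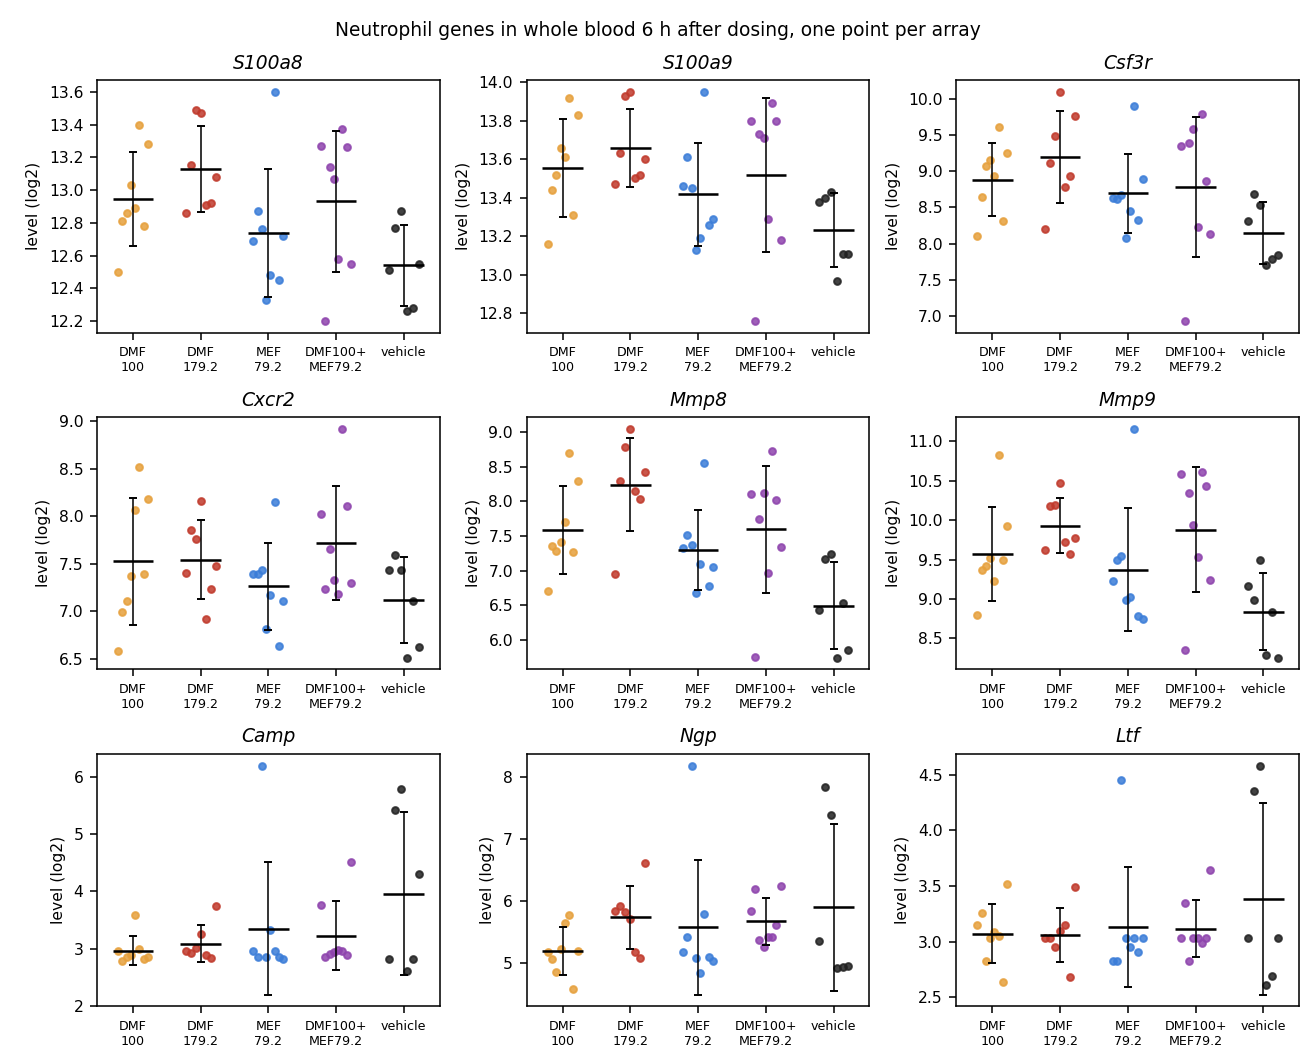
Levels (log2) of the 9 genes in whole blood 6 h after dosing, 1 point per array, with the mean (bar) and SD (whiskers) of each group. All DMF 179.2 points lie above all vehicle points for S100a9 and Mmp9, and 3 of the 6 vehicle points lie high for Camp and 2 of the 6 for Ngp and Ltf.

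The other dosed groups had smaller or like differences in blood at 6 h, and none was called. Mmp8 was higher than vehicle by 1.10 after DMF 100 (adjusted p = 0.540 by limma), by 0.80 after MEF 79.2 (0.707) and by 1.10 after DMF+MEF (0.245). DMF 100 gave S100a8 0.41 and Csf3r 0.74, and DMF+MEF 0.39 and 0.63, while MEF 79.2 gave 0.20 and 0.54. Unadjusted p-values below 0.05 were found for 5 of the 9 genes after DMF 100, 1 after MEF 79.2 and 6 after DMF+MEF. The shares of all genes called were 0.0%, 0.0% and 0.00585% in these 3 contrasts. DMF+MEF and DMF 179.2 carry the same total mass, and between them Mmp8 differed by -0.64 (95% interval -1.27 to -0.02, adjusted p = 0.615), with 0.0% of genes called. After DMF+MEF at 6 h, 0 of 10 monocyte and macrophage genes had a difference above 0 (median -0.54), and their mean level per array spanned 4.59 to 5.81, against 5.38 to 8.66 with vehicle. All 5 platelet genes had one above 0 (median 0.37). None of these genes was called by limma, 6 of the 10 and 2 of the 5 had an unadjusted p below 0.05, and their part in the DMF+MEF values was not tested.

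A list of other genes of mature neutrophils, chosen with earlier results of these data known, had 14 of 17 genes measured. All 14 differences were above 0 in blood 6 h after DMF 179.2. By limma 0 were called, and 7 had an unadjusted p below 0.05. Their median was 0.58, and that of the 8 measured other secondary and tertiary granule genes was 0.60, also with 8 of 8 above 0 and none called. Medians of other cell types were -0.05 for 6 red cell genes, 0.15 for 5 platelet genes and -0.07 for 10 monocyte and macrophage genes. They were -0.02 for 5 B cell genes, 0.01 for 6 T cell genes and 0.008 for 4 eosinophil genes. The 5 mast cell genes had a median of -0.201, with 0 of 5 above 0. By limma 0 genes of these lists were called, and 2 of the 10 monocyte and 2 of the 5 mast cell genes had an unadjusted p below 0.05.

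At 12 h no member was called in blood in any dosed or naive group. S100a8 had a lowest, median and highest level of 12.63, 12.79 and 13.21 in 6 DMF 179.2 arrays, against 12.34, 12.75 and 12.88 in 7 vehicle arrays, and the groups overlapped. Mmp8 was 6.81, 6.89 and 8.54 after DMF 179.2 against 5.84, 6.65 and 6.98 with vehicle, with only replicate 18 far above the rest. The difference was 0.56 (95% interval -0.11 to 1.24, adjusted p = 0.560 by limma). The effect of DMF 179.2 on Mmp8 at 12 h minus that at 6 h was -1.18 (95% interval -2.13 to -0.23, adjusted p = 0.612), in a contrast in which 0.0292% of genes were called. Of all genes, 0.0351%, 0.322%, 0.00585%, 0.216% and 0.269% were called against vehicle at 12 h in the DMF 100, DMF 179.2, MEF 79.2, DMF+MEF and naive groups, and 0.00585% between DMF+MEF and DMF 179.2. Only 1 value of these 5 groups against vehicle had an unadjusted p below 0.05, that of Camp after MEF 79.2.

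The secondary granule genes followed another pattern in blood. At 12 h Camp had a lowest, median and highest level of 3.39, 3.67 and 7.25 after DMF 179.2, 3.39, 3.68 and 8.52 after DMF 100, 3.39, 3.67 and 7.08 after MEF 79.2 and 3.39, 3.66 and 7.70 after DMF+MEF, against 3.37, 5.21 and 8.99 with vehicle. Most dosed mice lay near the lower end and 1 or a few in each group far above it, while 4 of 7 vehicle mice (replicates 1, 2, 4 and 8) were at 5.21 or more. The levels 3.39 and 3.67 recurred in arrays of several groups, and such levels cannot be read as differences in RNA amount. Naive mice had 4.0, 3.95, 6.5, 3.68 and 3.75, so that replicate 46 alone was high. Differences from vehicle ran from -1.43 (MEF 79.2) to -0.95 (DMF 100) in the dosed groups and were -1.18 in naive mice, and none was called (adjusted p 0.529 to 0.772 by limma). T cell and platelet genes lay to 1 side of vehicle at 12 h. All 6 T cell genes had differences above 0 in each of the 5 groups, with medians from 0.155 (MEF 79.2) to 0.292 (DMF 179.2), and 0 of 5 platelet genes did, with medians from -0.301 (DMF 100) to -0.088 (naive). Medians of the 6 red cell genes ran from -0.437 (DMF 179.2) to -0.05 (MEF 79.2). None of these genes was called by limma, although 1 to 5 of the 6 T cell genes had an unadjusted p below 0.05 in each group, and their part in the Camp values was not tested.

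Ngp moved with Camp, with a median of 5.29 after DMF 179.2 at 12 h, against 7.08 with vehicle (difference -1.19, adjusted p = 0.509 by limma). Ltf had 3.19 after DMF 179.2 against 4.21 (difference -0.55, adjusted p = 0.783). At 6 h the pattern was the same in kind: Camp was 2.84, 2.97 and 3.75 after DMF 179.2 against 2.61, 3.57 and 5.79 with vehicle, where replicates 52, 53 and 57 were at 4.31 or more.

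Across the 78 blood arrays, as deviations from the group means, the 3 granule genes varied with each other and little with S100a8. Pearson's r was 0.93 for Camp with Ngp, 0.93 for Camp with Ltf and 0.93 for Ngp with Ltf. For S100a8 it was 0.95 with S100a9, 0.87 with Csf3r, 0.85 with Mmp8 and with Mmp9, 0.76 with Cxcr2, but 0.11 with Camp, 0.15 with Ngp and 0.12 with Ltf. In the 72 spleen arrays the separation was smaller, with r = 0.77 for S100a8 with Camp and 0.84 with Ngp. In blood, Camp recurred at 3.39 and 3.67 at 12 h in arrays of several groups. Ltf likewise recurred at 3.03 at 6 h and at 3.12 at 12 h. Arrays at such levels cannot show whether these genes vary with S100a8. These r values describe arrays that share a normalization, and no p was computed for them.

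**Figure D3:**
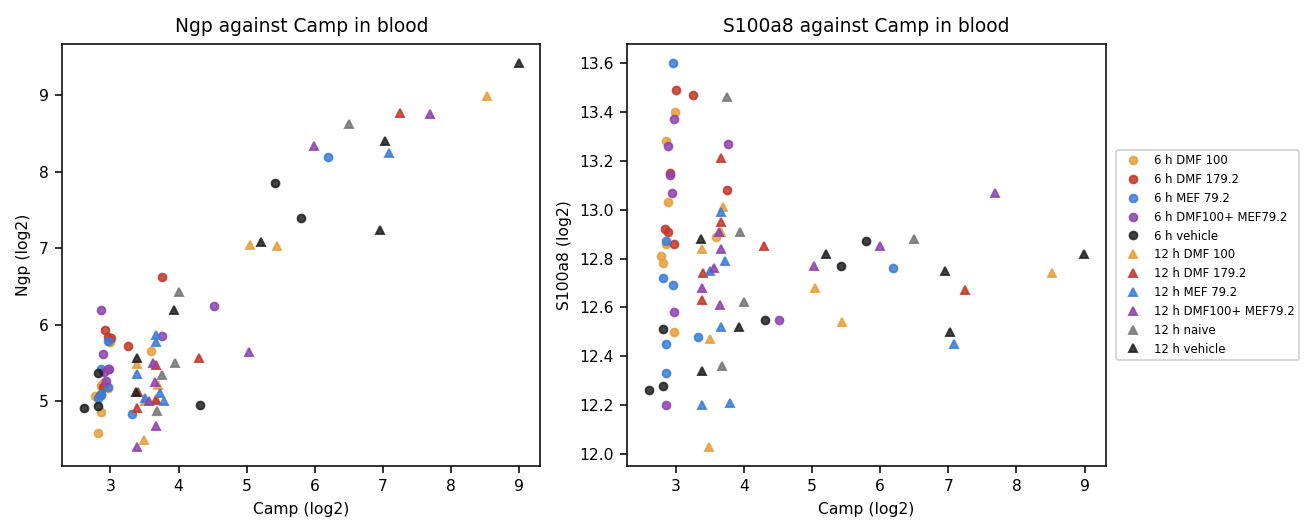
Ngp (left) and S100a8 (right) against Camp in whole blood, in log2 levels, 1 point per array, with circles for 6 h and triangles for 12 h and colours for treatment. Ngp rises with Camp, up to 9.42 at a Camp level of 8.99, and S100a8 of the arrays with high Camp stays within the range of the others.

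Genes were ranked by Pearson's r with the mean of the 9 members, among 8549 genes. The mean was not scaled by gene, so members of wide spread weigh most in it. In blood Camp spanned 2.61 to 8.99 and S100a8 12.03 to 13.6, so the mean there follows Camp more than S100a8. The highest in blood over 78 arrays were Lcn2 (0.74), which encodes the secondary granule protein lipocalin-2, Slc40a1 (0.67), the iron exporter ferroportin, and Hp (0.62), haptoglobin. In spleen they were Lcn2 (0.91), Mpo (0.89), the primary granule enzyme myeloperoxidase, and Hp (0.86) over 72 arrays. No gene reached 0.54 in the other organs. The highest there were Cd302 in brain (0.537, 86 arrays), Eci1 in jejunum (0.505, 76), Hmgb2 in kidney (0.442, 77), Cd300a in mesenteric node (0.435, 88) and Cd300ld in inguinal node (0.391, 73).

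In spleen 6 h after DMF 179.2, 5 of the 9 genes rose: Mmp8, Csf3r, S100a8, Mmp9 and S100a9, by 2.64-, 2.30-, 1.62-, 1.58- and 1.36-fold. Camp, Ngp, Ltf and Cxcr2 did not pass the test. In this contrast 23% of all genes were called, and the members' median was 0.44 beside 0.01 over all genes.

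S100a8 in spleen had a lowest, median and highest level of 12.04, 12.45 and 12.88 in 7 DMF 179.2 arrays, against 11.15, 11.79 and 12.24 in 8 vehicle arrays. Replicate 67, again the lowest of its group as in blood, was the only treated spleen within the vehicle range. The difference was 0.69 (SE 0.16, adjusted p = 0.00102 by limma), and for S100a9 it was 0.44 (SE 0.14, adjusted p = 0.0123), with 12.82, 12.94 and 13.42 against 12.04, 12.62 and 12.97. Csf3r had 6.66, 7.34 and 8.36 against 5.25, 6.13 and 6.99, with a difference of 1.20 (SE 0.24, adjusted p = 0.000181). Mmp8 had 5.12, 6.11 and 6.70 against 3.76, 4.70 and 6.31, where 1 vehicle spleen stood well above the other 7, and differed by 1.40 (SE 0.27, adjusted p = 9.77e-05). Mmp9 had 6.62, 6.99 and 7.63 against 5.98, 6.28 and 6.94, and differed by 0.66 (SE 0.24, adjusted p = 0.0398).

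The granule genes, which were far higher in spleen than in blood, had differences of 0.26 for Camp (9.28, 9.83 and 10.23 against 8.80, 9.67 and 9.99, adjusted p = 0.509 by limma), 0.37 for Ngp (0.246) and 0.43 for Ltf (0.211), and the groups overlapped. Cxcr2 had -0.19 (adjusted p = 0.257). DMF 100 gave S100a8 0.41, Csf3r 0.90, Mmp8 0.59 and Mmp9 0.63, DMF+MEF 0.38, 0.78, 0.69 and 0.59, and MEF 79.2 0.24, 0.41, 0.30 and 0.51, none of them called. Unadjusted p-values below 0.05 were found for 5, 3 and 1 of the 9 genes in these 3 groups by limma, and 0.146%, 3.98% and 3.5% of all genes were called in them. DMF+MEF and DMF 179.2 did not differ in any of the 9 genes after adjustment (Mmp8 -0.71, 95% interval -1.37 to -0.05, adjusted p = 0.245), in a contrast with 5.11% of genes called.

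Other lists moved in the same spleen contrast. Of 14 other genes of mature neutrophils 7 rose and 0 fell (median 0.48), among them Stfa2l1 (1.52), a stefin gene, Clec4d (1.19) and Clec4e (0.92), C-type lectin receptor genes, and Hdc (0.86), the histamine-forming enzyme. Of 8 other secondary and tertiary granule genes 4 rose (median 0.36), with Hp at 0.90 and Cd177 at 0.74, and of 6 primary granule genes 1 rose, Prtn3 (0.88), which encodes proteinase 3. Red cell genes rose as well, 3 of 6 (median 1.11), led by Klf1 (1.82), an erythroid transcription factor gene, and Alas2 (1.11). Of 10 monocyte and macrophage genes 4 rose (median 0.24; Ccr2 0.51), 2 of 6 T cell genes fell (Cd3g -0.29, Cd3d -0.22), and of 9 neutrophil growth factor and chemokine genes 0 were called (median 0.00).

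Pancreatic acinar and liver genes fell in this contrast, 2 of 6 called, with Prss2 at -4.97 and Cpa1 at -4.44, and their mean per array spanned 3.82 to 3.96 in DMF 179.2 spleens against 3.71 to 10.68 in vehicle spleens. Without the arrays that held them, Csf3r and Mmp8 were still called, and S100a8 (0.51, adjusted p = 0.0804 by limma), S100a9 (0.25, adjusted p = 0.356) and Mmp9 (0.51, adjusted p = 0.317) were not. Restricted to places of the numbering that both groups held, the 5 differences were 0.52 to 1.08 with 0 called, in a comparison chosen after seeing the data.

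**Figure D4:**
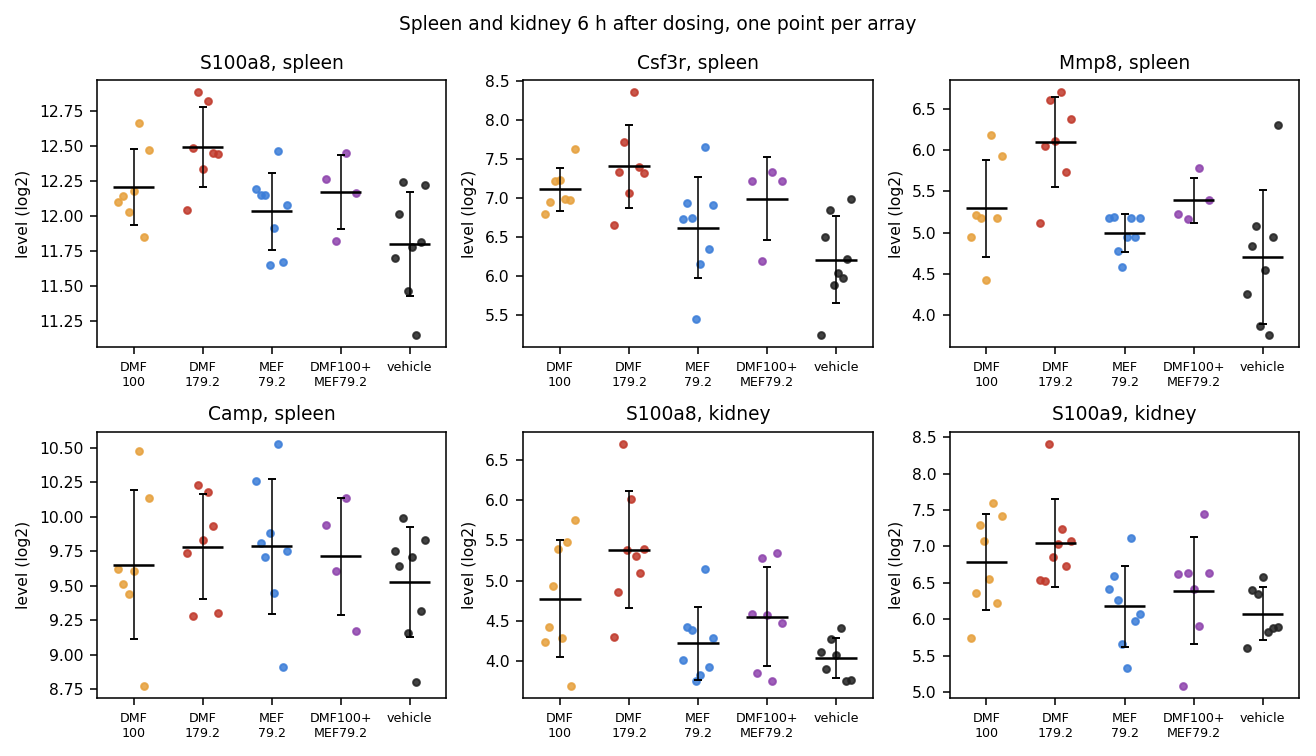
Levels (log2) in spleen and kidney 6 h after dosing, 1 point per array, with the mean (bar) and SD (whiskers) of each group. DMF 179.2 has the highest mean for S100a8, Csf3r and Mmp8 in spleen and for S100a8 and S100a9 in kidney, and the groups overlap for Camp in spleen.

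At 12 h no member was called in spleen. The effect of DMF 179.2 on Csf3r was 0.03 at 12 h (5.80, 6.5 and 7.50 after DMF 179.2 against 5.81, 6.45 and 7.18 with vehicle), against 1.20 at 6 h. The difference between the times was -1.17 (95% interval -1.86 to -0.48, adjusted p = 0.0304 by limma), in a contrast in which 6.09% of genes were called. It was the 1 of 63 such differences of DMF 179.2, over 9 genes and 7 organs, that was called, and with a term for place it was -1.14 with an adjusted p of 0.0815. Mmp8 and S100a8 had -0.93 (adjusted p = 0.147) and -0.51 (adjusted p = 0.194) in that test. No difference between times was refitted without the spleens that held pancreatic or liver genes. At 12 h 0.0175%, 0.474%, 0.924%, 3.36% and 18.3% of genes were called against vehicle in the DMF 100, DMF 179.2, MEF 79.2, DMF+MEF and naive spleens, with 0 members at an unadjusted p below 0.05, and 0.0175% were called between DMF+MEF and DMF 179.2.

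In kidney 6 h after DMF 179.2, the 2 calprotectin genes rose and the other 7 genes were not called. S100a8 had a lowest, median and highest level of 4.30, 5.34 and 6.70 in 8 DMF 179.2 kidneys, against 3.75, 4.08 and 4.41 in 7 vehicle kidneys. Replicate 67 alone fell within the vehicle range. The difference was 1.34 (SE 0.24, 2.53-fold, adjusted p = 1.27e-05 by limma). S100a9 had 6.53, 6.95 and 8.41 against 5.60, 5.90 and 6.58, with replicate 69 far above the other treated kidneys, and differed by 0.97 (SE 0.28, 1.96-fold, adjusted p = 0.00525). In this contrast 25% of all genes were called, so the count of 2 of 9 members is no larger a share than that of all genes. Among the other 7 members the differences ran from -0.02 (Mmp9) to 0.03 (Cxcr2). Each of these 7 stood at the same repeated value in most 6 h kidney arrays, dosed or vehicle. The values were 4.0 for Csf3r, 2.18 for Cxcr2, 2.16 for Mmp8, 3.44 for Mmp9, 2.17 for Camp, 2.16 for Ngp and 2.43 for Ltf. Levels that do not vary between arrays cannot show whether these genes changed.

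The other dosed groups gave smaller differences for S100a8 in kidney at 6 h: 0.74 after DMF 100 (3.69, 4.68 and 5.76, adjusted p = 0.0699 by limma), 0.51 after DMF+MEF (3.76, 4.58 and 5.34, adjusted p = 0.185) and 0.18 after MEF 79.2 (3.74, 4.16 and 5.15, adjusted p = 0.906). For S100a9 they were 0.71, 0.32 and 0.10. In these 3 contrasts 4.07%, 13.2% and 5.9% of genes were called. DMF+MEF was lower than DMF 179.2 for S100a8 by 0.83 on the log2 scale (difference -0.83, 95% interval -1.31 to -0.35, adjusted p = 0.0136), where 13.2% of genes were called. It was the 1 of 126 values called between these groups over 7 organs and both times. S100a9 differed by -0.66 (adjusted p = 0.104).

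Other neutrophil genes gave little signal in kidney. Of 14 other mature neutrophil genes 1 rose after DMF 179.2, Clec4d (0.34), and the median of the 14 was 0.00. Their mean level per array spanned 3.09 to 3.27 after DMF 179.2 and 3.09 to 3.18 with vehicle. Of 6 red cell genes 1 rose (Klf1 0.33, median 0.16), of 10 monocyte and macrophage genes 2 rose and 1 fell (Cd68 0.51, C1qc 0.37, C1qa -0.38), and of 8 glucocorticoid response genes 1 rose and 2 fell (Per1 1.59, Zbtb16 -1.32, Dusp1 -0.37). Their part in the result was not tested. At shared places of the numbering the differences of S100a8 and S100a9 were 1.33 and 1.21, with adjusted p-values of 0.378 and 0.333.

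At 12 h S100a8 in kidney had 3.81, 4.30 and 5.19 after DMF 179.2 against 3.79, 4.03 and 4.36 with vehicle, a difference of 0.40 (95% interval -0.07 to 0.86, adjusted p = 0.405 by limma). No dosed group had a called member, and none had a member with an unadjusted p below 0.05. The effect of DMF 179.2 on S100a8 at 12 h minus that at 6 h was -0.95 (adjusted p = 0.0749), where 7.14% of genes were called. Naive kidneys had 1 called member, Ltf, with a lowest, median and highest level of 3.15, 3.33 and 3.5 against 3.14, 3.15 and 3.15 with vehicle (difference 0.18, adjusted p = 8.31e-06), in a contrast in which 46% of all genes were called, a larger share than that 1 of 9 members. For DMF 100, DMF 179.2, MEF 79.2 and DMF+MEF at 12 h the shares of genes called were 1.38%, 7.25%, 17.5% and 11%, and between DMF+MEF and DMF 179.2 the share was 0.433%.

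S100a8 in blood was compared with S100a8 in each organ of the same animal, as deviations from the group means, in 12 relations with 100000 permutations each, 2-sided and Benjamini-Hochberg adjusted over the 12. At 6 h blood and spleen gave r = 0.84 and rho = 0.90 over 31 animals, and blood and kidney r = 0.76 and rho = 0.78 over 36. For all 4 of these coefficients the permutation p was 1e-05, the smallest 100000 permutations can give, and the adjusted p 6e-05. Without the 2 animals farthest from the median in blood, r was 0.85 for spleen and 0.74 for kidney, and with a line over place removed, an alternative chosen after seeing the data, 0.83 and 0.78.

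Brain at 6 h had r = 0.52 and rho = 0.56 over 37 animals (permutation p = 0.00114 and 0.00039, adjusted 0.00342 and 0.00117), and r = 0.41 without 2 animals. Kidney at 12 h had r = 0.62 and rho = 0.65 over 32 animals (permutation p = 0.00014 and 9e-05, adjusted 0.00056 and 0.00036), and r = 0.61 without 2. Spleen at 12 h had r = 0.38 and rho = 0.41 over 33 animals (permutation p = 0.0276 and 0.0176, adjusted 0.0663 and 0.0421), and brain at 12 h r = 0.21 and rho = 0.34 over 39 (permutation p = 0.196 and 0.0377, adjusted 0.34 and 0.0753). In the 2 lymph nodes and jejunum r was -0.11 to 0.25 and no adjusted p was below 0.05.

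Hba-a1, an alpha globin gene of red cells and their precursors, was set beside S100a8 as a description. Within an organ its level had r = 0.03 with S100a8 in spleen at 6 h, -0.17 in kidney at 6 h, -0.11 in brain at 6 h and -0.00 in kidney at 12 h, and 0.44 and 0.45 in spleen and brain at 12 h.

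**Figure D5:**
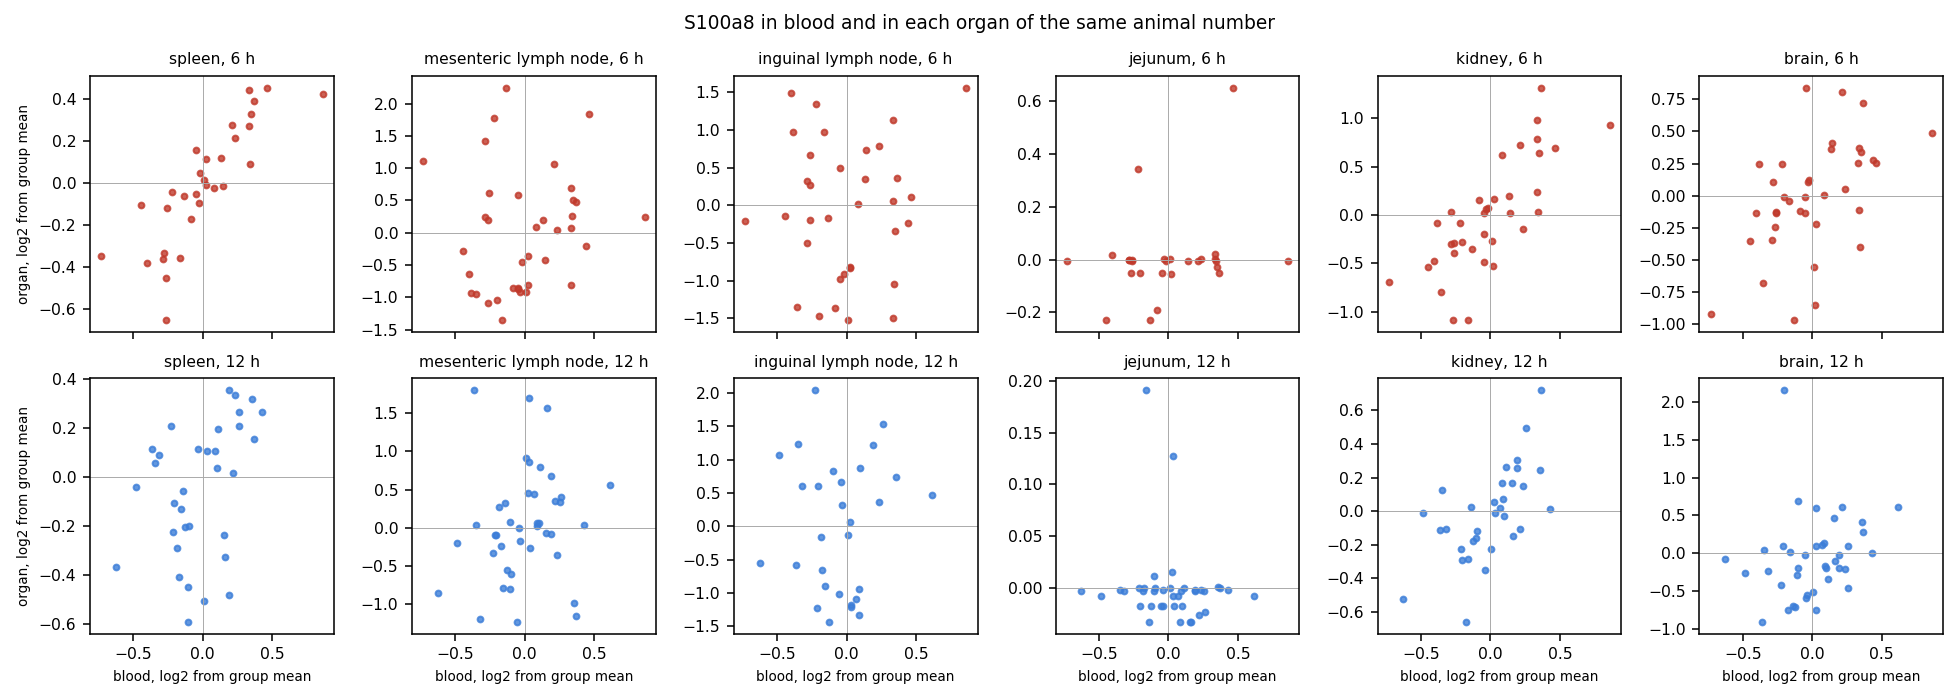
S100a8 in whole blood (horizontal) against S100a8 in each organ (vertical) of the same animal number, both as log2 deviations from the group mean, at 6 h (upper) and 12 h (lower). Points rise together in spleen and kidney at 6 h, with r = 0.84 and 0.76, and form no line in the lymph nodes or jejunum.

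In the lymph nodes Mmp9 was the 1 member called. In mesenteric node 6 h after DMF 179.2 it had a lowest, median and highest level of 6.68, 6.87 and 7.48, against 4.90, 6.5 and 6.87 with vehicle (n = 8 each). The lower end of vehicle was wide, and the groups overlapped near 6.8. The difference was 0.73 (SE 0.15, 1.66-fold, adjusted p = 0.00432 by limma), with 0.392% of genes called, and it was 0.29, 0.40 and 0.33 after DMF 100, MEF 79.2 and DMF+MEF, not called, with 0.0234%, 0.00585% and 0.181% of genes called. S100a8 (0.52) and S100a9 (0.57) had SDs above 1 in vehicle nodes (1.08 and 1.5) and were not called. Of the other mature neutrophil genes 2 of 14 rose after DMF 179.2, Clec4d (1.56) and Fpr2 (0.59), a formyl peptide receptor gene. Fitted on these 16 arrays alone, Mmp9 had an adjusted p of 0.293.

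At 12 h no member was called in mesenteric node. Mmp9 differed by 0.05 after DMF 179.2, and its effect at 12 h minus 6 h was -0.69 (adjusted p = 0.0689 by limma), where 2.61% of genes were called. S100a8 had 4.88, 6.06 and 6.96 after DMF 179.2 and 5.44, 5.81 and 6.94 in naive mice, against 3.98, 5.18 and 6.76 with vehicle, with differences of 0.86 (adjusted p = 0.188) and 0.89 (adjusted p = 0.118). In the DMF 100, DMF 179.2, MEF 79.2, DMF+MEF and naive groups 0.0819%, 13.8%, 0.602%, 4.24% and 24.4% of genes were called. Between DMF+MEF and DMF 179.2 the share was 0.0% at 6 h and 15.6% at 12 h, with no member among them.

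Inguinal node had its call 12 h after DMF 179.2. Mmp9 had a lowest, median and highest level of 5.39, 6.03 and 6.21 in 6 arrays, against 4.81, 5.48, 5.26 and 5.42 in 4 vehicle arrays. Replicate 1 was the lowest vehicle node and replicate 21 the 1 treated node within the vehicle range. The difference was 0.68 (SE 0.16, 1.60-fold, adjusted p = 0.0039 by limma), with 12.3% of genes called, a share no smaller than that 1 of 9 members, and without vehicle replicate 1 it was 0.53 with an adjusted p of 0.0866. Mast cell genes rose in the same contrast, 4 of 5 called with a median of 1.71 (Cpa3 1.95, Cma1 1.77), and 3 of 14 other mature neutrophil genes fell (Slfn4 -1.83, Ifitm6 -0.80, Trem3 -0.10). The mast cell genes' mean per array spanned 6.51 to 7.29 after DMF 179.2 against 3.64 to 6.43 with vehicle, and their part in the result was not tested.

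S100a8 in inguinal node had wide groups: 7.23, 8.98 and 10.05 at 6 h after DMF 179.2 against 5.99, 7.83 and 8.53 with vehicle, and at 12 h 6.66, 7.94 and 8.86 against values from 5.77 to 7.92. The differences of 1.19 at both times were not called (adjusted p = 0.655 at 6 h and 0.230 at 12 h by limma). Clec4d rose at 6 h after DMF 179.2 (1.04), the 1 of 14 other mature neutrophil genes called. At 6 h 0.0292%, 0.234%, 0.00585% and 0.433% of genes were called after DMF 100, DMF 179.2, MEF 79.2 and DMF+MEF, and at 12 h 1.27%, 12.3%, 1.05% and 3.53%, with 14.5% in naive mice. Between DMF+MEF and DMF 179.2 the shares were 0.0468% at 6 h and 0.0234% at 12 h, and 3.83% of genes were called for DMF 179.2 at 12 h minus 6 h.

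Jejunum held most of the Mmp9 calls, while S100a8, Cxcr2, Mmp8, Camp and Ngp lay at or near the floor there. At 6 h Mmp9 was 6.73, 7.16, 6.39 and 7.16 in 4 DMF 100 arrays, against a lowest, median and highest of 5.52, 6.12 and 6.46 in 8 vehicle arrays. Of the 4, 3 lay above every vehicle array. The difference was 0.82 (SE 0.23, adjusted p = 0.0329 by limma), in a contrast with 2.61% of genes called, and without replicate 64 it was 0.72 with an adjusted p of 0.234. DMF 179.2 gave 0.54 (5.60, 6.70 and 6.94, adjusted p = 0.0526), MEF 79.2 0.15 and DMF+MEF 0.08.

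S100a8 and Cxcr2 were also called after DMF 100 at 6 h, and both calls rested on replicate 64. S100a8 was 2.22, 2.22, 2.25 and 3.10, against 2.22 in vehicle, and Cxcr2 2.15, 2.15, 2.15 and 2.33, against 2.15. The differences of 0.23 and 0.04 fell to 0.01 and 0.00 without that array. Clec4d rose in jejunum 6 h after DMF 179.2 (1.58) and DMF+MEF (0.69). The shares of genes called at 6 h were 8.62% after DMF 179.2, 1.19% after MEF 79.2 and 6.57% after DMF+MEF, and 0.123% between DMF+MEF and DMF 179.2.

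At 12 h Mmp9 in jejunum was called in 4 of 5 groups. Its lowest, median and highest level was 6.27, 6.43 and 6.70 after DMF 179.2, 6.06, 6.27 and 6.56 after MEF 79.2, 6.27, 6.36 and 6.82 after DMF+MEF and 6.04, 6.22 and 6.52 in naive mice, against 4.34, 5.47 and 6.40 with vehicle. The vehicle group was the wide and low one, and naive mice lay with the dosed mice. The level 6.27 recurred in arrays of every dosed group and of vehicle, and arrays at it cannot be ranked by RNA amount. Differences were 0.89 (adjusted p = 0.0012 by limma), 0.75 (0.0379), 0.92 (0.00142) and 0.69 (0.0204), and 0.60 after DMF 100 (0.103). All genes called made up 0.632%, 7.4%, 0.813%, 3.45% and 5.44% in the DMF 100, DMF 179.2, MEF 79.2, DMF+MEF and naive contrasts.

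The distal intestine genes Hoxb6 and Hoxb9 moved with these calls. Hoxb6 was lower in all 5 groups, from -1.75 after DMF 179.2 to -1.38 after DMF 100, and their mean per array reached 7.90 in vehicle against at most 3.62 in the DMF 179.2 group. Without the 4 arrays above, Mmp9 differed by 0.56, 0.42, 0.59 and 0.36 after DMF 179.2, MEF 79.2, DMF+MEF and in naive mice, and none was called (adjusted p = 0.0934, 0.605, 0.153 and 0.504 by limma). Ltf was called after DMF 179.2 with a difference of 0.14, at levels of 2.18, 2.31 and 2.57 against 2.18 in every vehicle array, at the floor. The effect of DMF 179.2 on Mmp9 at 12 h minus 6 h was 0.35 (adjusted p = 0.549), with 3.15% of genes called, and 0.0526% were called between DMF+MEF and DMF 179.2 at 12 h.

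In brain no member was called. The largest differences came 6 h after DMF+MEF, where S100a8 had a lowest, median and highest level of 5.20, 6.37 and 6.93, against 4.59, 5.23 and 5.56 with vehicle (n = 8 each), a difference of 0.97 (95% interval 0.42 to 1.53, adjusted p = 0.119 by limma). S100a9 differed by 1.06 (5.47, 7.23 and 7.76 against 5.12, 5.97 and 6.80, adjusted p = 0.205), and the groups overlapped for both. DMF 179.2 gave 0.42 and 0.62, DMF 100 0.40 and 0.55, and MEF 79.2 0.19 and 0.20. At 12 h S100a8 and S100a9 differed by 0.61 (adjusted p = 0.304) and 0.40 (adjusted p = 0.729) after DMF+MEF. Replicate 35 of this group was at 7.87 and 8.22, against at most 5.81 and 6.56 in replicates 33, 34, 36 and 37. No fit was made without replicate 35. Of all genes 0.0117%, 7.2%, 0.123% and 0.105% were called at 6 h after DMF 100, DMF 179.2, MEF 79.2 and DMF+MEF, and at 12 h 0.0234%, 1.31%, 0.0877% and 1.45%, with 2.56% in naive mice. Between DMF+MEF and DMF 179.2 the shares were 0.076% and 0.0702%, and 1.12% of genes were called for DMF 179.2 at 12 h minus 6 h.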

How the data were processed

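The deposited value table of the series holds log2 values for every probe set and array. RMA, GCRMA, R 2.11.1 and limma 3.4.5 are named per the submitters' processing notes, with no role or order. Of 45141 probe sets, 104 were controls, 28898 were annotated to 1 gene, 551 to several and 15588 to none. Those of 1 gene covered 17097 genes, and the probe set of highest mean in an organ stood for its gene. Retnlg had no such probe set and was not analysed here. Mmp9 had 2 probe sets, and another one was used in kidney than elsewhere.

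Each organ was fitted apart in limma 3.58.1 (R 4.3.3, version 1.17.8 of data.table), with a mean for every time and treatment, moderated variances and no covariate. Tests were 2-sided, with Benjamini-Hochberg adjustment over the 17097 genes of a contrast and calls at an adjusted p below 0.05. Animal numbers in the labels were taken as separate animals, and the number of arrays limits the precision. Each organ and time has its own floor, as sets normalized apart would have, and a shift of all genes within a set cannot be seen. Python 3.11.15, pandas 2.3.3, numpy 2.4.6, scipy 1.17.1 and matplotlib 3.10.9 served for the permutations, summaries and plots, and the fit was tested on simulated data.

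The members and the gene lists were chosen with earlier results of these data known. The rule for named genes takes in all members in every contrast, and the text gives values for those the results turn on. From each other list at most 4 called genes are named, those of the largest change. Tra2b, Hoxb6, Hoxb9 and Alb are named because they were taken as signs of place, gut position and other tissue. The genes most like the members' mean in each organ are named too. The alternatives tried were quantile normalization on top of the deposited values, leaving out genes under the organ's median level, trended and robust variances, fitting the compared groups alone, averaging a gene's probe sets, and a linear term for an animal's place within each 12 consecutive numbers. Spleens with acinar genes 2 above the lowest array or Alb above 8 (19 arrays), and jejunum arrays with Hoxb6 and Hoxb9 above 6 (4 arrays), were left out in another. In groups of at most 5 arrays each array was omitted in turn. A comparison within shared places, and the removal of a line over place from the relations of blood with organs, were added after seeing the data.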

Additional observations from a re-analysis of the deposited data

Results flagged for a closer look

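Chance marks about 1 in 20 groups in the search for arrays that stand far from the rest of their group, and 24 of 135 sets of a group and gene were marked. The search covered all 9 genes in every blood group of 4 to 10 arrays, which gave 21 of 99 sets, but in the other organs only the genes and groups of called values, which gave 3 of 36. Camp stood far above the other arrays of its group in DMF 100 replicate 10 (8.52, others 3.39 to 5.44), DMF 179.2 replicate 23 (7.25, others to 4.30), MEF 79.2 replicate 26 (7.08, others to 3.79) and naive replicate 46 (6.5, others to 4.0) at 12 h. At 6 h it did so in DMF 100 replicate 63 (3.59, others to 2.99) and MEF 79.2 replicate 77 (6.19, others to 3.32). Ngp was far above its group in 3 of the same arrays, DMF 179.2 replicate 23 (8.77) and MEF 79.2 replicate 26 (8.25) at 12 h and MEF 79.2 replicate 77 (8.19) at 6 h. So was Ltf in DMF 100 replicate 10 (6.43) and MEF 79.2 replicate 26 (5.54) at 12 h and MEF 79.2 replicate 77 (4.45) at 6 h.

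The genes of circulating neutrophils were marked in other animals. MEF 79.2 replicate 80 at 6 h was highest in its group for S100a8 (13.60), Csf3r (9.90), Mmp8 (8.55) and Mmp9 (11.16). At 12 h DMF 100 replicate 9 was lowest for S100a9 (12.75), Mmp8 (5.46) and Mmp9 (8.25), DMF+MEF replicate 35 was lowest for Mmp9 (8.21) and DMF 179.2 replicate 18 highest for Mmp8 (8.54). Outside blood, jejunum DMF 100 replicate 64 at 6 h was high for S100a8 (3.10) and Cxcr2 (2.33), and kidney DMF 179.2 replicate 69 at 6 h for S100a9 (8.41).

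The effect of DMF 179.2 on Csf3r in spleen differed between the times, by -1.17 at 12 h minus 6 h, in the test of that difference. It was the 1 called of 63 such differences and was not called with a term for place. A fit without the spleens that held other tissue was not made for it.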

How the results depend on the processing

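No paired analysis was possible because the groups compared share no animal numbers. The numbers of member calls in the dosed groups were unchanged with the place term, the mean of probe sets, and trend and robust variances. Leaving out dim genes removed members under an organ's median level, among them S100a8, Cxcr2 and Ltf in jejunum. Calls of the members removed could not be tested that way. Among the values of members kept, 269 were counted as unchanged and 1 as stronger. Fitting only the groups compared left 0 calls, against 1 each in blood and mesenteric node at 6 h and inguinal node at 12 h. It also left 0 against 3 in jejunum at 6 h and 4 in jejunum at 12 h. Fewer arrays then estimate the spread, and the cause of the lost calls was not tested. A further quantile normalization gave 1 call against 3 in jejunum at 6 h and 4 against 2 in kidney at 6 h; the cause was not tested. Leaving out arrays with other tissue gave 2 calls against 5 in spleen at 6 h, 0 against 4 in jejunum at 12 h and 1 against 2 for naive against vehicle. Within shared places, chosen after seeing the data, 0 calls were left in blood, spleen, mesenteric node and kidney at 6 h, in inguinal node and jejunum at 12 h, and for naive, with fewer arrays in each fit; 27 of 36 values could be compared in spleen and 18 of 36 in inguinal node. Leaving out 1 array at a time gave 5 to 6 calls in spleen at 6 h, 0 to 1 in inguinal node at 12 h (0 without vehicle replicate 1) and 0 to 3 in jejunum at 6 h (0 without DMF 100 replicate 64, 2 without replicate 60). Csf3r in kidney 6 h after DMF 179.2, a gene with an SD of 0.00 in vehicle kidneys, was -0.023 after a further quantile normalization, against 0.01; the cause was not tested. Genes at the floor give no measure of a fall.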

Other observations

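Clec4d, which encodes a C-type lectin receptor of neutrophils and macrophages and is no member, rose 6 h after DMF 179.2 in 5 organs by limma: jejunum (1.58), mesenteric node (1.56), spleen (1.19), inguinal node (1.04) and kidney (0.34). After DMF+MEF at 6 h it rose in mesenteric node (0.94), inguinal node (0.87) and jejunum (0.69), and in mesenteric node it was also higher 12 h after DMF 179.2 (0.77). It was chosen for this account after its values were seen.

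In inguinal node at 12 h, 4 of 5 mast cell genes were higher than vehicle after DMF 100 (median 1.51), DMF 179.2 (1.71) and MEF 79.2 (1.56) and in naive mice (1.31), and their mean per array spanned 5.95 to 7.05 in naive mice against 3.64 to 6.43 in the 4 vehicle arrays. After DMF+MEF 4 of the 5 were above vehicle (median 1.007) and 0 were called by limma, with 4 at an unadjusted p below 0.05.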
